A study of Mus musculus with 10 samples.

Results

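Trp53, the gene of the tumour suppressor p53, and 9 genes that p53 is known to switch on were described in lung tumours of the mouse in which Trp53 had been made deletable. The 10 genes were taken by symbol from a table of read counts that held 39017 genes, each symbol had 1 entry, and all 10 had enough reads to be tested among 15922 genes. The 9 targets were Cdkn1a, Mdm2, Ccng1, Bax, Phlda3, Eda2r, Zmat3, Trp53inp1 and Aen. The libraries were made from poly(A) RNA of the CD45-negative cells of macrodissected tumours, 5 libraries labelled Control and 5 labelled Glut1KO. Both groups had the C57BL/6 background and floxed Trp53 alleles, and the tumours were started in the airways with Ad5CC10-Cre, an adenovirus that expresses Cre recombinase from the promoter of the club cell gene CC10, and collected at 20 weeks and 1 day. The Glut1KO animals also carried floxed alleles of Slc2a1, which encodes the glucose transporter Glut1, while the Control libraries were labelled heterozygous for the floxed allele, although the study's design text calls the controls Glut1-WT. All Control libraries came from males, and among the Glut1KO libraries replicates 1 to 3 came from females and replicates 4 and 5 from males.

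In a cell under stress p53 binds pairs of short DNA elements near its targets and raises their transcription. Cdkn1a (p21) stops the cell cycle, Bax, Aen and Phlda3 favour cell death, and Mdm2 marks p53 itself for destruction, which closes a feedback loop. Lung tumours that lose p53 progress to advanced adenocarcinoma, and several of these targets also have transcription that does not need p53. Because both groups had the Trp53 deletion, the comparison asked whether the remaining Trp53 reads or the target levels differed with the Slc2a1 genotype, and whether the targets followed Trp53 from library to library. In RNA from a mixed fraction, fewer cells of a type and less RNA per cell cannot be told apart.

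The libraries held 35.3 to 49.8 M counted reads, with 42.7 ± 4.00 M in the Control group and 40.9 ± 3.82 M in the Glut1KO group (SD, n = 5 each). Slc2a1, the gene that separates the genotypes, was at 73.2 to 118 CPM (the read count scaled to a common library total, with TMM factors) in the Control libraries and at 34.6 to 60.3 in Glut1KO replicates 1 to 3, but at 92.4 and 103 in Glut1KO replicates 4 and 5. In these 2 male libraries the level did not set the label apart from Control, so "Glut1KO" below names the label. Summed markers of tumour epithelium lay between 25907 and 69815 CPM in the Control libraries and between 46883 and 63370 in the Glut1KO libraries. The summed leukocyte markers lay between 317 and 465 CPM and between 339 and 591 CPM in these groups, although CD45-positive cells had been depleted. Some libraries may share an animal, since the deposited column names carry 2 different second numbers among the Control libraries and 4 among the Glut1KO libraries, so the p-values here measure the spread between libraries. Both male Glut1KO libraries carry the same number, and if it marks the animal, every comparison between males below has 1 animal on the Glut1KO side.

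The p53 response element consists of 2 half-sites of 10 bases with a gap of 0 to 13 bases. Windows of 300 bases around the transcription start (RefSeq, GRCm38.p6) were matched for 8 of the 10 genes, Zmat3 and Trp53inp1 being without one, and a half-site lay in the windows of 6. Among all 32851 windows, 8.36% held a half-site and 0.0731% held a response element, and counted by gene these shares were 9.55% and 0.074% of 27025 genes. The half-site reads the same on both strands. The stretches below show these matches in the 5′ to 3′ direction of each gene with the half-sites in capitals, because 2 such half-sites form the element that p53 recognises.
Cdkn1a, chr17:29090891-29090952, plus strand: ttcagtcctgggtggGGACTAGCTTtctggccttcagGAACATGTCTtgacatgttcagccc
Mdm2, chr10:117710920-117710959, minus strand: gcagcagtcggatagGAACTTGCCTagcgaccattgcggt
Ccng1, chr11:40755447-40755486, minus strand: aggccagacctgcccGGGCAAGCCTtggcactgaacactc
Bax, chr7:45467075-45467114, minus strand: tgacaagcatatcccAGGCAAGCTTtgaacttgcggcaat
Aen, chr7:78895922-78895961, plus strand: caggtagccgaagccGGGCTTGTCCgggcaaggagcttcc
Trp53, chr11:69580269-69580308, plus strand: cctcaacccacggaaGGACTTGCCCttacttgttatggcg
Cdkn1a was the 1 member with a response element in a window. Its other window, at chr17:29093519-29093818, held no half-site. The windows of Phlda3 and Eda2r held no half-site, which says only that these letters are not in these windows. A match of letters is a description and not a bound site.

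Trp53 lies on chr11:69580359-69591873 (GRCm38, the mm10 build, plus strand; positions below are on this build), and its principal transcript has 11 exons and 1771 bases. In the floxed allele in common use, Cre removes exons 2 to 10. These hold 1091 bases of the transcript, and the remaining 680 bases, 38.4% of it, lie outside. A count per gene does not separate reads of the recombined allele from reads of an intact one, so the Trp53 level here is the sum of both. The related pseudogene Trp53-ps had 1 read over all 10 libraries.

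**Figure D1:**
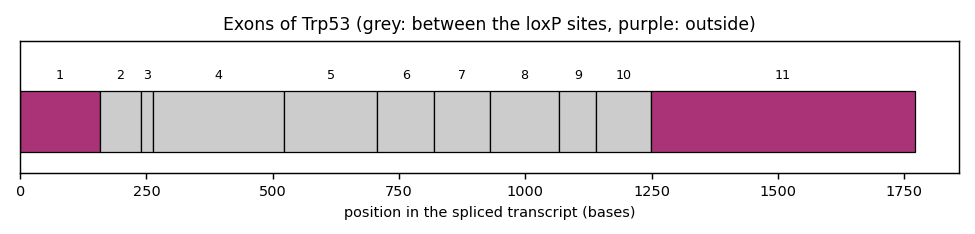
Exons of the principal Trp53 transcript drawn to scale along the spliced RNA (x axis, position in bases; numbers, exon number). The grey exons 2 to 10 lie between the loxP sites of the floxed allele in common use and the purple exons 1 and 11 outside them, which leaves 38.4% of the bases after recombination.

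Trp53 was measured at a low level in every library, with one library far above the rest. In Control replicates 1 to 5 it was at 5.44, 6.09, 8.18, 6.84 and 6.22 CPM, and in Glut1KO replicates 1 to 5 at 8.79, 8.27, 5.39, 18.1 and 6.997 CPM, from 215 to 589 reads. Glut1KO replicate 4 stood at 2.64 times the median of the other 9 libraries, and otherwise the groups overlapped. The group means were 6.55 ± 1.03 and 9.50 ± 4.96 CPM (SD, n = 5 each). The log2 fold change (Glut1KO minus Control) was 0.38 with an SE of 0.29, and limma with voom gave an adjusted p = 0.776. An exact permutation test of the group labels gave a two-sided p of 0.190. Between the male libraries only, the difference of mean log2 CPM was 0.79 with an exact permutation p of 0.0952, where the smallest p possible is 0.0476. Without Glut1KO replicate 4, the log2 fold change was 0.15.

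Across all genes limma called 0% at an adjusted p under 0.05, and none of the 10 genes was called. At an unadjusted p under 0.05 limma listed 1223 genes, or 7.68% (3.66% higher and 4.02% lower in Glut1KO), and 1 member, Mdm2, on the lower side. With sex as a covariate the unadjusted limma p of Mdm2 was 0.058, at a log2 fold change of -0.28. All Control libraries were male, so the group difference in this fit rests on Glut1KO replicates 4 and 5 against the Controls. This is the same contrast as between the male libraries, with Slc2a1 in the Control range in both Glut1KO libraries, which may come from 1 animal. In that fit Zmat3 (0.0229), Aen (0.0382) and Eda2r (0.0455) were under 0.05 on the higher side, and the other members were not. The share of all genes under 0.05 in that fit is not given here. The quasi-likelihood test of edgeR also called 0 genes, and DESeq2 called 210, or 1.32%, with 0 of 9 members among them, as it gave no p-value for Eda2r. With sex as a covariate limma called 3 genes, or 0.0188%, and between male libraries 1 gene, or 0.00597%, again with 0 members. The median log2 fold change of the 10 members was 0.00, with 5 above and 5 below 0, against -0.00 for all genes tested. Without Glut1KO replicate 4, 2 were above and 8 below 0 and the median was -0.25.

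Mdm2 (chr10:117688875-117710758), the ubiquitin ligase that keeps p53 low and is at the same time its target, was the 1 member whose groups did not overlap, being lower in every library labelled Glut1KO. Its levels were 84.8, 80.4, 69.2, 75.7 and 73.6 CPM in Control replicates 1 to 5 and 57.7, 62.7, 54.7, 57.7 and 68.8 CPM in Glut1KO replicates 1 to 5. The lowest Control library and the highest Glut1KO library lay close together, at 69.2 and 68.8 CPM. Among all genes tested, 1.84% had groups that did not overlap and 1.06% had groups that did not overlap with the Glut1KO libraries lower. The means were 76.7 ± 6.04 and 60.3 ± 5.54 CPM (SD, n = 5 each), and the log2 fold change was -0.35 with an SE of 0.10 and a 95% confidence interval of -0.57 to -0.12. This difference did not pass limma over all genes (adjusted p = 0.436, place 204 of 15922 by p) nor DESeq2 (adjusted p = 0.0635), while the exact permutation test of the single gene gave 0.00794, the smallest p it allows. Between males the difference was -0.28 (exact permutation p = 0.0476, again the smallest possible). Both permutation p-values are fixed once the groups do not overlap, so they restate that separation and add nothing to it. Markers of other cells were also compared between the groups. Of 11 leukocyte markers tested 10 had a log2 fold change above 0 (median 0.88), of 12 endothelial markers 12 did (median 0.64), and of 9 AT1 markers 5 did (median 0.09). Below 0 were 9 of 10 ciliated cell markers (median -0.83), 6 of 7 club cell markers (median -0.45), 9 of 11 fibroblast markers (median -0.21) and 4 of 5 erythroid markers (median -0.55), and tumour epithelium had 6 of 12 on either side (median 0.02). Limma called 0 of these markers, but 6 of the 11 leukocyte markers had an unadjusted limma p under 0.05 on the higher side (3.66% of all genes) and 5 of 11 had groups that did not overlap (0.785% of all genes on that side). The endothelial levels were 162 to 591 CPM in the Control and 273 to 759 CPM in the Glut1KO libraries, and the summed club cell levels 2116 to 10510 and 1154 to 7156 CPM. Their part in the Mdm2 difference was not tested.

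Cdkn1a (chr17:29090976-29100727), the cyclin-dependent kinase inhibitor p21, had the highest Control mean per kilobase of exon among the members. It also varied least of them over the 10 libraries. Control replicates 1 to 5 were at 113, 98.5, 84.5, 95.5 and 110 CPM, and Glut1KO replicates 1 to 5 at 116, 95.8, 111, 123 and 95.8 CPM. The groups overlapped over most of their range, with a coefficient of variation of 11.5% over all libraries. Its log2 fold change was 0.11 with a 95% confidence interval of -0.14 to 0.37 and a limma adjusted p = 0.841, and it ran from 0.05, without Control replicate 3, to 0.17, without Glut1KO replicate 5. An antisense transcript model, AC167363.2, overlaps Cdkn1a, and the strand setting of the counting is not given in the sources used here.

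Ccng1 (chr11:40748552-40755311), which encodes cyclin G1 and takes part in the feedback on p53, was set by 2 libraries, one of each group. It was at 112, 44.8, 77.2, 78.4 and 54.9 CPM in Control replicates 1 to 5 and at 79.1, 61.5, 54.8, 147 and 68.0 CPM in Glut1KO replicates 1 to 5. Control replicate 1 and Glut1KO replicate 4 were the highest, and the other 8 libraries lay between 44.8 and 79.1 CPM. The log2 fold change was 0.13 (SE 0.30, limma adjusted p = 0.933) and was -0.09 without Glut1KO replicate 4 and -0.03 without Control replicate 2. Between the males the difference was 0.52.

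Phlda3 (chr1:135766119-135769136), which inhibits the kinase Akt, spread more widely and had the same 2 libraries on top. It was at 26.5, 2.17, 9.48, 5.24 and 6.70 CPM in Control replicates 1 to 5 and at 3.07, 3.14, 1.41, 14.97 and 1.92 CPM in Glut1KO replicates 1 to 5, an 18.7-fold range. Apart from Glut1KO replicate 4, the Glut1KO libraries were at or below 3.14 CPM, a level that only Control replicate 2 went below. The log2 fold change was -1.10 with a 95% confidence interval of -2.73 to 0.52 and a limma adjusted p = 0.756. Leaving out 1 library moved it between -1.61, without Control replicate 2, and -0.65, without Control replicate 1, with -1.60 without Glut1KO replicate 4, and each of these stayed below 0. Between the males the difference was -0.42.

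Among the genes that act in cell death, Bax (chr7:45461697-45466898), which opens the outer mitochondrial membrane, was at 36.4, 31.3, 37.0, 34.9 and 41.95 CPM in Control replicates 1 to 5 and at 33.4, 24.6, 25.7, 43.5 and 41.5 CPM in Glut1KO replicates 1 to 5. The 2 male Glut1KO libraries stood at the upper end of the Control range or above it, and female replicates 2 and 3 below it. Its log2 fold change over all libraries was -0.15 (limma adjusted p = 0.865), and between the males the difference was 0.23, of the opposite sign. Leaving out Glut1KO replicate 2 moved the log2 fold change over all libraries to -0.04 and leaving out replicate 3 to -0.05. Reads of Bax may be shared with Gm45808, a gene model on the same strand that overlaps it.

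Aen (chr7:78895854-78911209), an exonuclease that takes part in apoptosis, was at 37.5, 18.0, 24.3, 25.8 and 21.4 CPM in Control replicates 1 to 5 and at 21.98, 15.2, 15.7, 42.8 and 33.1 CPM in Glut1KO replicates 1 to 5. Again Glut1KO replicate 4 and Control replicate 1 were the highest, and the groups overlapped. The log2 fold change was -0.07 (SE 0.30, limma adjusted p = 0.974). The difference between the males was 0.61, and for the same contrast the fit with sex as a covariate gave 0.62 (limma adjusted p = 0.427). Over both sexes the log2 fold change lay above 0, at 0.08 to 0.10, without Control replicate 1, Glut1KO replicate 2 or Glut1KO replicate 3.

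Eda2r (chrX:97333840-97377216), a receptor of the tumour necrosis factor family encoded on the X chromosome, was near the limit of counting in 9 libraries and well counted in one. It had 6 to 28 reads in 9 libraries (0.146 to 0.571 CPM) and 180 reads, or 5.52 CPM, in Glut1KO replicate 4. That library stood 11.5 times above the median of the other 9. The log2 fold change was 0.38 with an SE of 0.79 and a limma adjusted p = 0.927, and it was -0.38 without Glut1KO replicate 4, so this library fixed its sign. By edgeR it was 1.69 and by DESeq2 1.71 (with no p-value). With sex as a covariate it was 1.86 (limma adjusted p = 0.4398), and between the males, the same contrast, the difference was 1.96.

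Zmat3 (chr3:32334792-32366014), an RNA-binding zinc finger protein, was at 38.2, 24.7, 24.9, 34.0 and 25.2 CPM in Control replicates 1 to 5 and at 26.9, 24.6, 22.3, 47.5 and 37.3 CPM in Glut1KO replicates 1 to 5. Here too the highest libraries were Glut1KO replicate 4 and Control replicate 1, and the female Glut1KO libraries lay at or below 26.9 CPM. The log2 fold change was 0.07 with an SE of 0.22 (limma adjusted p = 0.959), and -0.08 without Glut1KO replicate 4. With sex as a covariate it was 0.54 (limma adjusted p = 0.4003), and between the males, the same contrast, the difference was also 0.54. Trp53inp1 (chr4:11156431-11174379), a nuclear protein that promotes autophagy and death, was at 55.0, 37.6, 56.1, 65.4 and 62.1 CPM in Control replicates 1 to 5 and at 42.5, 49.8, 26.9, 57.8 and 40.5 CPM in Glut1KO replicates 1 to 5. It was highest in Control replicates 4 and 5, and its log2 fold change of -0.37 had a 95% confidence interval of -0.84 to 0.10 and a limma adjusted p = 0.723. It was -0.20 without Glut1KO replicate 3, and the difference between the males was -0.17.

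**Figure D2:**
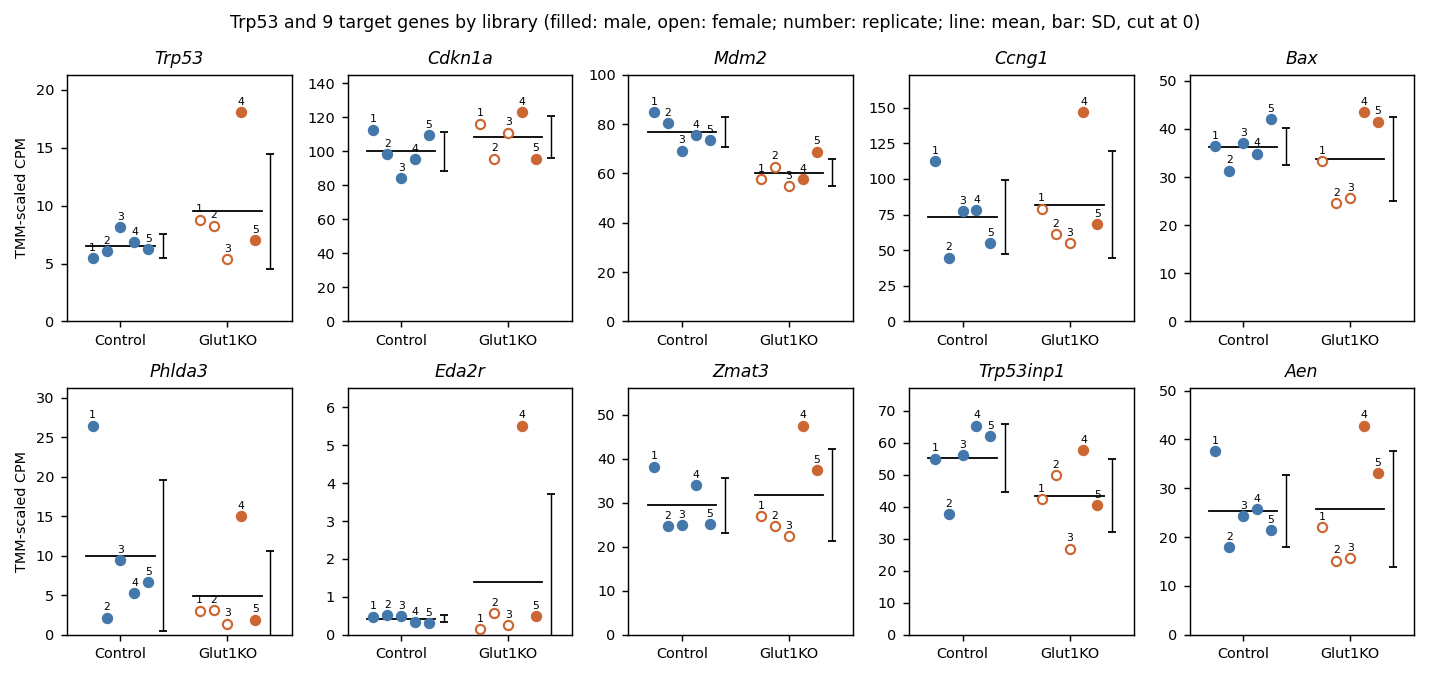
TMM-scaled CPM (y axis, from 0) of Trp53 and the 9 targets in each Control (blue) and Glut1KO (orange) library; filled points are male, open points female, numbers are replicates, lines are means and bars SD. Mdm2 is the 1 gene whose groups do not overlap, while Glut1KO replicate 4 stands highest for Trp53 at 18.1 CPM and for 6 of the 9 targets.

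**Figure D3:**
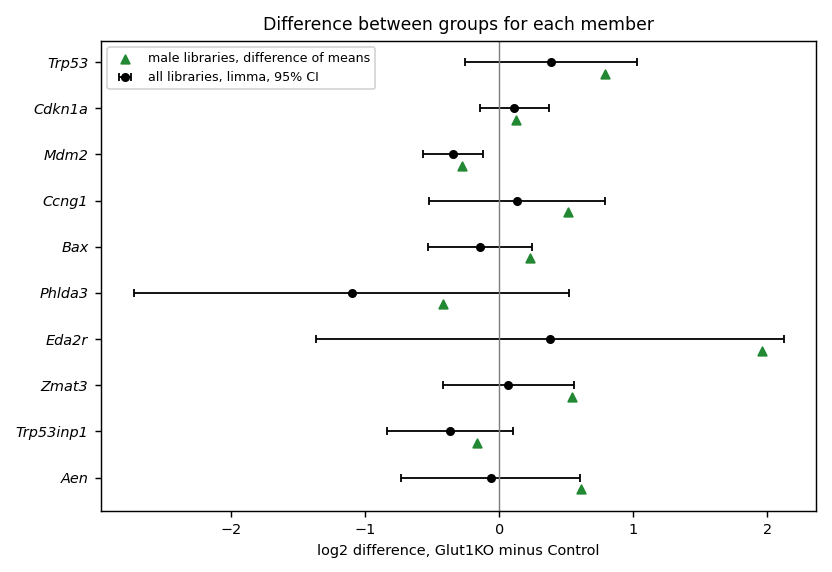
Difference between the groups (x axis, log2, Glut1KO minus Control) for each of the 10 genes; circles are the limma estimates over all libraries with 95% confidence intervals, and triangles the difference of means between the male libraries. The interval of Mdm2, from -0.57 to -0.12, is the 1 interval that leaves out 0, and the triangles of Bax and Aen lie on the other side of 0 from their circles.

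Set per kilobase of exon, the mean of the Control libraries was highest for Cdkn1a at 28.2 ± 3.22 CPM per kilobase (SD, n = 5). Bax at 23.0 ± 2.44, Ccng1 at 20.9 ± 7.41 and Mdm2 at 15.1 ± 1.19 followed. The spread of Cdkn1a met those of Bax and Ccng1, and in Control replicate 1 Ccng1 stood at 31.98 and Cdkn1a at 31.76. Bax and Ccng1 did not differ beyond their spread, nor did Ccng1 and Mdm2. Trp53inp1 (8.53 ± 1.66), Phlda3 (6.42 ± 6.14) and Aen (4.38 ± 1.28) came next, again with neighbours within their spread. Zmat3 was at 2.57 ± 0.548, Trp53 itself at 1.62 ± 0.256 and Eda2r at 0.0726 ± 0.0166 CPM per kilobase. The length used joins all annotated exons of a gene, for Trp53 4045 bases against the 1771 of its principal transcript. The place of Trp53 in this order therefore depends on the length taken.

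Glut1KO replicate 4 was the highest library for 7 of the 10 members, namely Trp53, Cdkn1a, Ccng1, Bax, Eda2r, Zmat3 and Aen, and for 12.4% of all genes tested. Control replicate 1 and Glut1KO replicate 4 were the 2 highest libraries for Ccng1, Phlda3, Zmat3 and Aen, 4 of the 9 targets, as they were for 4.52% of all genes tested. These 2 libraries were picked after the values were seen, so the counts are a description. Their Trp53 levels differed, since Control replicate 1 had the lowest Trp53 of its group at 5.44 CPM and Glut1KO replicate 4 the highest of all. Of the 8 marker sums, Control replicate 1 had the highest of all 10 libraries for club cells (10510 CPM), and its other 7 sums lay inside the range of the other Control libraries. Glut1KO replicate 4 had the highest sums of its group for tumour epithelium (63370 CPM) and for erythroid cells (751 CPM, against 189 to 407) and the lowest for endothelial cells (273 CPM), with the other 5 inside the range of its group. The part of cell content in these levels was not tested.

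Whether the targets followed Trp53 was read from the correlation of log2 CPM over the 10 libraries, with permutation p-values adjusted over the 9 targets. No target reached an adjusted p under 0.05. The highest r was that of Eda2r (r = 0.76, permutation p = 0.0606, adjusted 0.273; rho = 0.37, adjusted 0.577), followed by Ccng1 (r = 0.65, permutation p = 0.0475, adjusted 0.273; rho = 0.53, adjusted 0.577). Zmat3 had an r of 0.52, Aen 0.44, Bax 0.36, Trp53inp1 0.34, Phlda3 0.32 and Cdkn1a 0.29, with permutation adjusted p-values between 0.309 and 0.438 and rho between 0.09 and 0.32. Mdm2 alone had a negative r, at -0.50 (permutation adjusted p = 0.309; rho = -0.43, adjusted 0.577).

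Most of the positive correlations rested on Glut1KO replicate 4, and 6 of the 8 changed sign without it. Then r was 0.12 for Ccng1, -0.12 for Eda2r, -0.14 for Zmat3, -0.13 for Aen, -0.02 for Bax, -0.10 for Phlda3 and -0.39 for Cdkn1a, and Trp53inp1 kept 0.27. Without the 2 libraries farthest from the median of Trp53, Glut1KO replicates 3 and 4, all 8 positive values turned negative, between -0.44 and -0.03, and r for Mdm2 was -0.93 (permutation adjusted p = 0.00804, n = 8). For Mdm2 the r was -0.92 over the 7 male libraries (exact permutation adjusted p = 0.0161), -0.81 without Glut1KO replicate 3 (adjusted permutation p = 0.00367) and -0.37 without Glut1KO replicate 4. As deviations from the group means, which removes the difference between the groups, it was -0.27 (exact permutation adjusted p = 0.608). By the same deviations r was 0.78 for Eda2r, 0.70 for Trp53inp1, 0.66 for Ccng1, 0.62 for Phlda3, 0.54 for Bax, 0.53 for Zmat3, 0.52 for Aen and 0.16 for Cdkn1a, with exact permutation adjusted p-values between 0.233 and 0.742. These deviations include Glut1KO replicate 4, and their r was not computed without it. Without Control replicate 1, Ccng1 had r = 0.91 (adjusted permutation p = 0.0269).

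**Figure D4:**
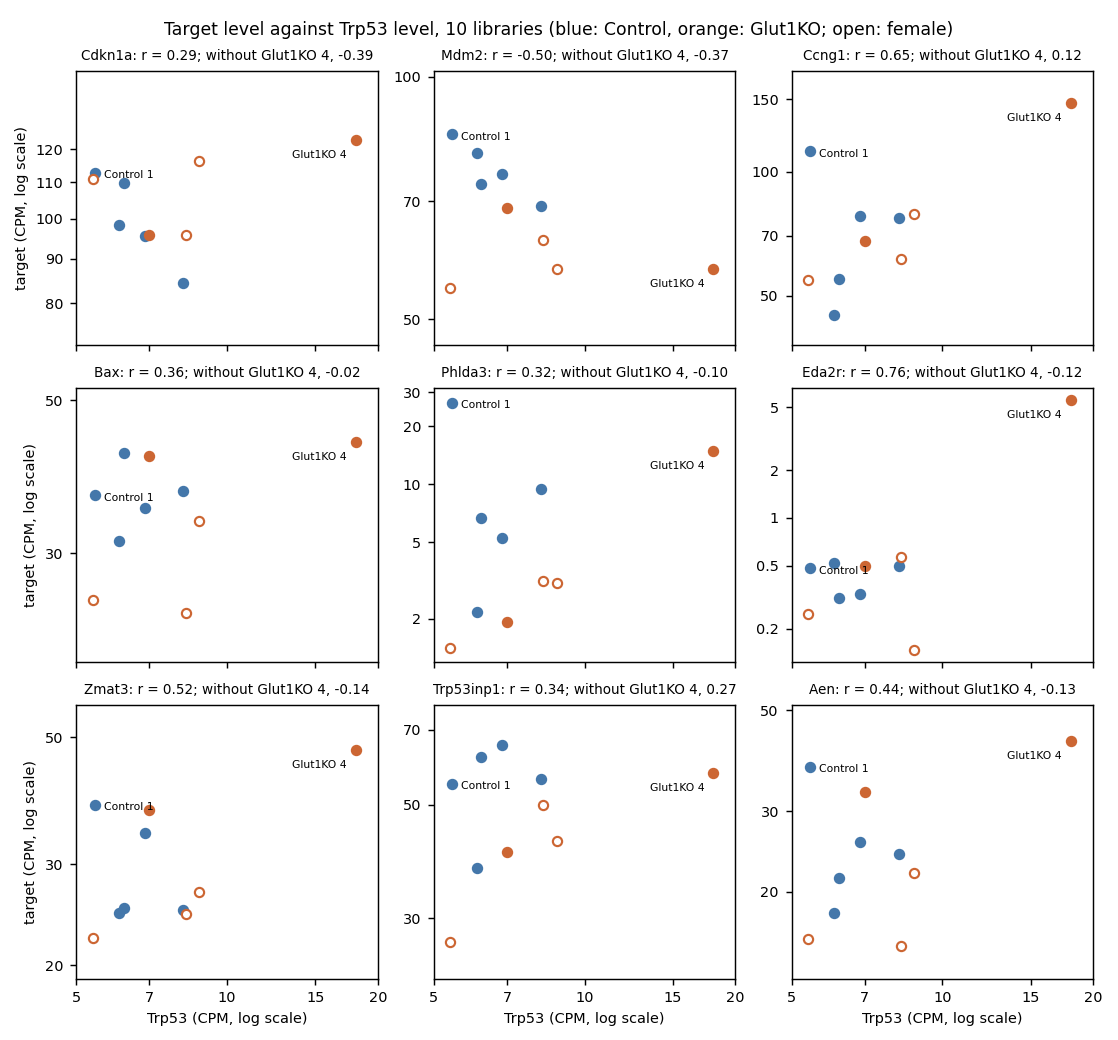
Level of each of the 9 targets (y axis, CPM, log scale) against that of Trp53 (x axis, CPM, log scale) in the 10 libraries; blue is Control, orange Glut1KO, open points female. Glut1KO replicate 4 lies alone at a Trp53 level of 18.1 CPM, and Control replicate 1, at 5.44 CPM, is high in Ccng1, Phlda3, Zmat3 and Aen.

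The targets were also compared with each other. Of 36 pairs of targets, 32 had an r above 0, the median r was 0.45, and 4 pairs had an adjusted permutation p under 0.05. These were Zmat3 with Aen (r = 0.93), Ccng1 with Aen (r = 0.84), Ccng1 with Zmat3 (r = 0.83) and Bax with Aen (r = 0.81). By Spearman's rho 1 pair passed. The same values for pairs of other genes were not computed, so these counts do not set the targets apart from other genes. With Control replicate 1 and Glut1KO replicate 4 left out, 0 pairs passed with n = 8 and the median r was 0.30. Zmat3 with Aen (r = 0.86, permutation adjusted p = 0.0746) and Bax with Aen (r = 0.85, permutation adjusted p = 0.0958) were then about as large as before, while Ccng1 with Aen (r = 0.57) and Ccng1 with Zmat3 (r = 0.49) were lower. The largest r was then that of Phlda3 with Trp53inp1, at 0.88 (permutation adjusted p = 0.0746) against 0.75 over all 10 libraries.

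The 5 genes whose levels ran most nearly with Trp53 held none of the 8 targets that could enter, Eda2r being below the minimum level. Among 13857 genes with a mean of at least 1 CPM, the 5 with the highest r over the 10 libraries were Flt1, a receptor of vascular endothelial growth factor (0.90), Hrct1 (0.87), Ucp2, a mitochondrial carrier (0.86), 2010001A14Rik (0.86) and Prickle1, a planar polarity gene (0.86). Without Glut1KO replicate 4 the r of 2010001A14Rik was 0.94, of Prickle1 0.85, of Hrct1 0.76, of Flt1 0.68 and of Ucp2 0.54. Ccng1 was in place 228 of this order and Mdm2 in place 12736. The summed markers of 8 cell types had correlations with Trp53 between -0.10 and 0.42 (permutation adjusted p = 0.878 for each), and for endothelial cells r was 0.09 with and 0.64 without Glut1KO replicate 4. Nearest to Cdkn1a were Ppp1r14d (0.90), Rps24 (0.89), Rpl13 (0.87), Rps13-ps4 (0.86) and Ngrn (0.85), of which the ribosomal protein genes have near-identical copies elsewhere in the genome, so that their counts are uncertain.

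Of 34 further targets of p53, 33 were tested and limma called 0, with 15 above and 18 below 0 and a median log2 fold change of -0.06. Plk3, a kinase of the stress response, was at 42.4, 24.6, 32.4, 33.4 and 26.9 CPM in Control replicates 1 to 5 and at 20.5, 16.7, 12.9, 12.1 and 18.7 CPM in Glut1KO replicates 1 to 5, without overlap. Its log2 fold change was -0.97 with an SE of 0.20 (limma adjusted p = 0.303), and DESeq2 called it. That was 1 of 33 genes called by DESeq2 and 1 of 33 without overlap on the lower side, where 1.32% and 1.06% of all genes tested were. Trp53i11, a gene induced by p53, was at 23.3 ± 8.02 and 38.9 ± 12.04 CPM (SD, n = 5 each), and its log2 fold change was 0.79 with a limma adjusted p = 0.537. Psrc1 (1.04), Pidd1 (-0.41) and Perp (-0.64) had log2 fold changes with limma adjusted p-values between 0.668 and 0.704.

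Of 27 regulators and relatives of p53, limma called 0, with 11 above and 16 below 0 and a median log2 fold change of -0.02. Cdkn2a, whose product p19Arf restrains Mdm2, was at 63.4, 97.8, 54.2, 68.8 and 58.1 CPM in Control replicates 1 to 5 and at 35.5, 34.9, 14.3, 18.3 and 101 CPM in Glut1KO replicates 1 to 5. The Glut1KO libraries were below every Control library except replicate 5, which was above them all, and the log2 fold change was -1.06 (limma adjusted p = 0.616). Sirt1, a deacetylase of p53, had a log2 fold change of -0.44 (limma adjusted p = 0.531), and Mdm4, the partner of Mdm2, of 0.22 (limma adjusted p = 0.829). Trp73 (-2.40), Hipk2 (0.35) and Rpl11 (0.35) also missed the threshold, with limma adjusted p-values between 0.677 and 0.748.

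Trp63, which encodes the p53 relative p63 and is typical of basal cells, was at 90.2 CPM in Control replicate 1 and at 1.02 to 6.08 CPM in the other Control libraries. In the Glut1KO libraries it was at 6.28, 3.30, 1.12, 12.5 and 0.657 CPM, so the 2 libraries with high Ccng1, Phlda3, Zmat3 and Aen were also the 2 highest for Trp63. Trp63 was the 1 of 27 regulators and relatives with these 2 libraries on top, or 3.7%, against 4.52% of all genes tested. Among the 33 further targets there were 3, or 9.09%, namely Pmaip1, a death-promoting relative of Bcl2, Tnfrsf10b, a death receptor, and Perp, a desmosome component that is a target of both p53 and p63. These counts are a description made after the values were seen.

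Genes of the cell cycle that p21 holds down gave 0 calls of 24 by limma, with 5 above and 19 below 0 and a median log2 fold change of -0.14 against -0.00 over all genes. This lean rested on Control replicate 2, without which 18 were above and 6 below 0 and the median was 0.07. The 5 with the lowest p, Ccnb2 (-0.39), Cdk1 (-0.31), Aurkb (-0.32), Bub1 (-0.32) and Aurka (-0.28), had limma adjusted p-values between 0.763 and 0.861. Each was highest in Control replicate 2, where Ccnb2 was at 24.9 CPM against 8.80 to 13.6 CPM and Cdk1 at 76.0 CPM against 27.5 to 41.99 CPM in the other Control libraries. None of the 24 was highest in Glut1KO replicate 4 or in Control replicate 1.

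**Figure D5:**
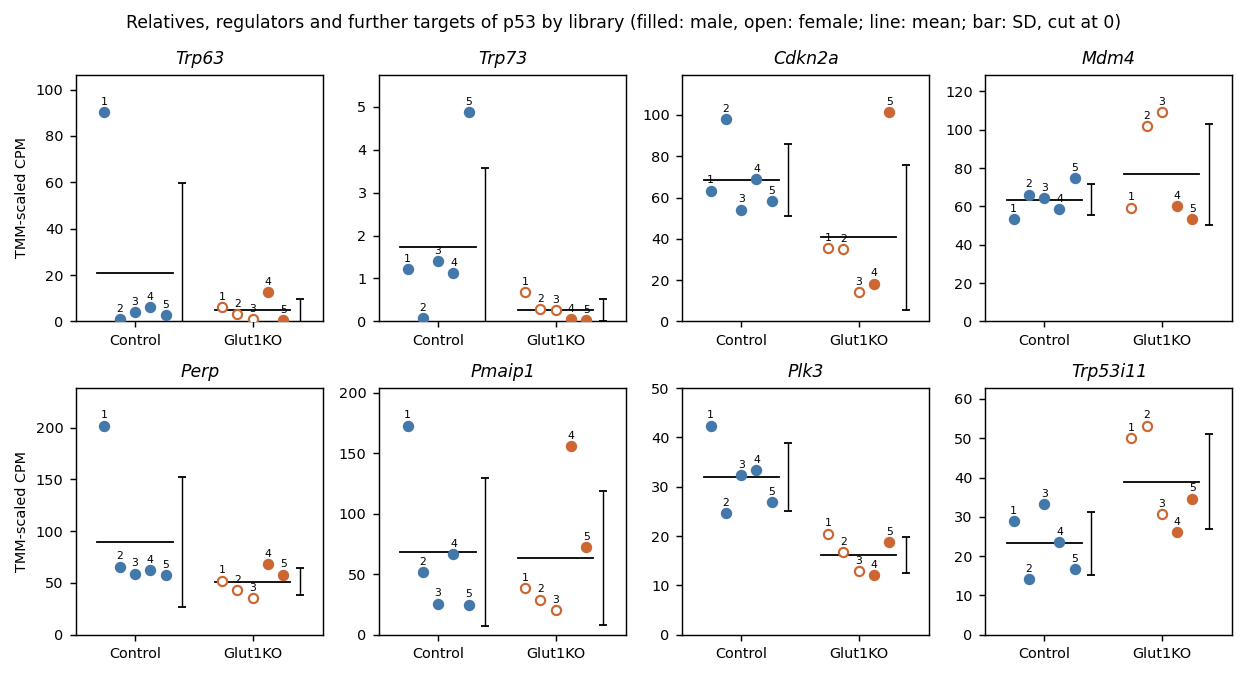
TMM-scaled CPM (y axis, from 0) of 8 relatives, regulators and further targets of p53 in each library, with symbols as for the members. Trp63 is at 90.2 CPM in Control replicate 1 and at or below 12.5 CPM in every other library, and Plk3 does not overlap between the groups.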

How the data were processed

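RNA from CD45-negative cells of 5 Control and 5 Glut1KO tumour libraries was sequenced by the authors after a stranded poly(A) protocol. The deposited table holds whole-number read counts per gene. The submitters' processing notes name bcl2fastq 2.17, cutadapt 1.4.2, HISAT2, featureCounts 1.4.4 and edgeR. The strand setting and the annotation release are not given in the sources used here. A deposited table of log2 values was not used. The totals of counted reads set the precision of low genes.

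Counts were scaled by TMM (edgeR 4.0.16), filtered with filterByExpr and fitted with voom and limma 3.58.1 (R 4.3.3), adjusted by Benjamini-Hochberg over 15922 genes. DESeq2 1.42.0 and edgeR's quasi-likelihood test were alternatives. Others were scaling, filters, sex, male libraries, blocks and each library left out. Single genes had two-sided exact permutation tests. Correlations used log2 CPM with 100000 permutations (scipy 1.17.1). The fit was tested on simulated data.

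Members and gene lists were chosen with earlier results of these data known. All members were named, together with the 5 genes of lowest limma p in each of 3 lists, Trp63, Trp73, Cdkn2a and Mdm4, and the 5 genes most correlated with Trp53 and with Cdkn1a. Of the identifiers, 96.4% were found in GENCODE M21, which gave positions and exon lengths. A further engineered allele that both groups carry is not reported here.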

Additional observations from a re-analysis of the deposited data

Results flagged for a closer look

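Values of 76 groups of 5 libraries were examined for a single library far from the other 4, and 14 exceeded the limit of Dixon's ratio (0.71), where chance alone flags about 1 in 20 groups whose values played no part in their choice. Most of the groups here were not of that kind, since the members and lists were chosen with earlier results known, further genes for a low limma p, and Pmaip1 and Slc2a1 after their values were seen, so the number that chance gives is not known. Among the members, 4 stood out in Glut1KO replicate 4. Trp53 was at 18.1 CPM there and at 5.39 to 8.79 CPM in the other Glut1KO libraries, Ccng1 at 147 against 54.8 to 79.1 CPM, Phlda3 at 14.97 against 1.41 to 3.14 CPM, and Eda2r at 5.52 against 0.146 to 0.571 CPM.

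In Control replicate 1, Trp63 was at 90.2 CPM against 1.02 to 6.08 CPM in the other Control libraries, Perp at 202 against 57.8 to 65.9 CPM, and Pmaip1 at 173 against 24.9 to 66.3 CPM. In Control replicate 5, Trp73 was at 4.87 CPM against 0.0742 to 1.41 CPM. In Glut1KO replicate 5, Cdkn2a was at 101 CPM against 14.3 to 35.5 CPM.

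Control replicate 2 had the most counted reads of its group, 49.8 M against 40.1 to 41.4 M, and the highest levels of 3 mitotic genes. Aurka was at 34.4 CPM against 10.1 to 13.4, Aurkb at 20.3 against 8.599 to 10.02, and Bub1 at 44.8 against 14.0 to 17.5 CPM. The summed erythroid markers reached 1462 CPM in Control replicate 3 against 237 to 463 CPM in the other Control libraries.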

How the results depend on the processing

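The members called were 0 under every alternative run, among those with a p-value (DESeq2 gave none for Eda2r). The genes called over all genes were 0, but 210 by DESeq2, 3 with sex as a covariate, 1 between male libraries, and 0 to 1 with a library left out (1 without Control replicate 3). With the replicate block, 0 genes were called, and the log2 fold change of Trp53 was 0.47. The replicate numbers did not pair the libraries (correlations of same-numbered deviations -0.13 to 0.20), and the block changed no call. A block on the second number of the column names, which may mark the animal, also gave 0 calls. There the log2 fold change of Trp53 was 0.37, and that of Mdm2 was -0.35 (limma adjusted p = 0.546). For Trp53 the log2 fold change ran from 0.15 to 0.56 with a library left out. Of 105 values of members' log2 fold changes under other alternatives, 98 kept their direction. The 7 that turned were Aen by edgeR (0.021), DESeq2 (0.026), with sex as a covariate (0.62) and between males (0.62), Bax with sex as a covariate (0.23) and between males (0.23), and Eda2r with Control replicate 1 and Glut1KO replicate 4 both left out (-0.33), a choice made after seeing the data. The fits with sex as a covariate and between males rest on the same contrast, so for Aen and Bax they are not separate results. Leaving out 1 library turned 8 of 100. Aen ranged from -0.25 to 0.10, Ccng1 from -0.095 to 0.30, Eda2r from -0.38 to 0.83, Zmat3 from -0.077 to 0.18, Trp53inp1 from -0.51 to -0.20 and Bax from -0.24 to -0.041. At a mean TPM of 20 or more, Trp53, Phlda3, Eda2r, Zmat3 and Aen had no value. The targets correlated with Trp53 numbered 0, but 1 without the 2 farthest libraries, 1 between males, and 0 to 1 with a library left out (Ccng1 without Control replicate 1, Mdm2 without Glut1KO replicate 3). Without the 2 farthest libraries r turned for Cdkn1a (-0.29), Ccng1 (-0.027), Bax (-0.38), Phlda3 (-0.41), Eda2r (-0.34), Zmat3 (-0.44), Trp53inp1 (-0.15) and Aen (-0.44). With a library left out, r ranged from -0.39 to 0.44 for Cdkn1a, -0.022 to 0.52 for Bax, -0.10 to 0.70 for Phlda3, -0.12 to 0.93 for Eda2r, -0.14 to 0.72 for Zmat3 and -0.13 to 0.69 for Aen. The target pairs correlated were 4, and 0 without both high libraries (n = 8), where r was still 0.86 for Zmat3 with Aen and 0.85 for Bax with Aen. The cause was not tested.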

Other observations

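Correlations of the 9 targets with Trp63 were computed after the Trp63 values were seen, so they describe these libraries only. Over the 10 libraries r was 0.88 for Phlda3 (permutation adjusted p = 0.00423; rho = 0.78, adjusted 0.0495) and 0.77 for Ccng1 (permutation adjusted p = 0.0448; rho = 0.87, adjusted 0.0188). The other 7 targets had r between 0.24 and 0.57, with permutation adjusted p-values between 0.210 and 0.513. Without the 2 libraries farthest from the median of Trp63, Control replicate 1 and Glut1KO replicate 5, r was 0.77 for Phlda3 and 0.91 for Ccng1. It was then 0.81 for Aen, 0.80 for Zmat3, 0.70 for Trp53inp1, 0.58 for Bax, 0.46 for Eda2r and 0.25 for Cdkn1a, and for Mdm2 it turned from 0.25 to -0.25.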
